A study of Mus musculus with 6 samples.

Results

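The genes described here are 37 genes of fatty acid oxidation and of the peroxisome proliferator-activated receptors (PPARs), out of 22274 genes measured in mouse ileal epithelium. They were listed by name for their known roles, with earlier results of these data known. They comprise 17 mitochondrial genes, 7 peroxisomal genes and 3 genes whose products work in both organelles. The 17 are genes of beta-oxidation, apart from the kinase Pdk4 and the thioesterase Acot2. The others are a group of 5, made of 4 acyl-CoA synthetases and 1 cytosolic thioesterase, and 5 genes of the PPAR receptors and their PGC-1 coactivators. All 37 had enough counts to be tested.

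RNA was sequenced from isolated intestinal epithelial cells of the ileum in 3 Ogt knockout libraries and 3 control libraries. Ogt is the gene of O-GlcNAc transferase, which adds single N-acetylglucosamine sugars to nuclear, cytoplasmic and mitochondrial proteins. The knockout combined floxed Ogt with Olfm4-CreER, a tamoxifen-inducible recombinase driven from a crypt stem cell gene, and the controls are given the genotype LoxP with no driver named. Per the labels' protocols, tamoxifen was given on 3 days in a row at 2 months of age, tissue was taken on day 10, and the protocol describes the knockout epithelium as Ogt-negative by then. That the controls received tamoxifen too is read from the protocol's wording on the offspring, since their label gives only LoxP. Effects of the recombinase itself and of the loss of Ogt cannot be told apart in this design, nor could those of tamoxifen if the controls had none. No label states whether each library is from its own mouse, so the p-values below measure only the spread between these samples, which may be technical.

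Cells burn fatty acids by beta-oxidation, which removes acetyl-CoA units in repeated rounds of dehydrogenation, hydration, a further dehydrogenation and thiolysis. Mitochondria take up long-chain fatty acids through the carnitine shuttle, while peroxisomes shorten very long and branched chains before passing the products on. The PPARs are nuclear receptors that bind fatty acids and, paired with retinoid X receptors, switch on many genes of both organelles. In the intestine, absorptive enterocytes meet dietary fat directly, and PPARalpha and PPARdelta are known there as regulators of fat oxidation and ketone production.

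Library totals lay between 14389429 and 18076479 estimated counts, and 14005 genes were tested. The first principal component held 49.3% of the variance and separated the knockout libraries from the control libraries. Ogt had 48.5, 43.0 and 36.0 CPM (counts scaled to a common library size by the TMM method) in the knockout libraries, against 140.1, 127 and 128 CPM in the control libraries. The transcript was lower in every knockout library but not absent there, with a log2 fold change of -1.63 ± 0.13 (SE; adjusted p = 0.00121 by edgeR's quasi-likelihood test with Benjamini-Hochberg adjustment over all tested genes, the test used for every gene below). Oga, the enzyme that removes O-GlcNAc, also fell, by 1.47 ± 0.14 on the log2 scale (adjusted p = 0.00162). Of the 14005 genes, 1307 were higher and 1312 lower in the knockout at an adjusted p under 0.05. With library size alone as the scaling, the split was 2045 higher and 859 lower. Limma on log2(FPKM + 0.1) gave 1883 higher and 712 lower, out of the 11832 genes kept there.

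The oxidation genes did not move together. At that threshold 14 of the 37 genes differed, or 37.8%, where 18.7% of all tested genes did. Higher in the knockout were 6 members (Eci1, Acads, Cpt2, Acadl, Pex11a and Acaa1b), beside 9.33% of all genes. Lower were 8 members (Acadvl, Etfdh, Hsd17b4, Crot, Hao2, Eci2, Acsl1 and Ppargc1a), beside 9.37% of all genes. In 20 members the CPM of the groups did not overlap, with the knockout above in 8 and below in 12; across all tested genes 39.8% showed no overlap. The median log2 fold change of the members was -0.06, and that of all tested genes was -0.05. In such bulk libraries, fewer cells of a type and less RNA per cell cannot be told apart.

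**Figure D1:**
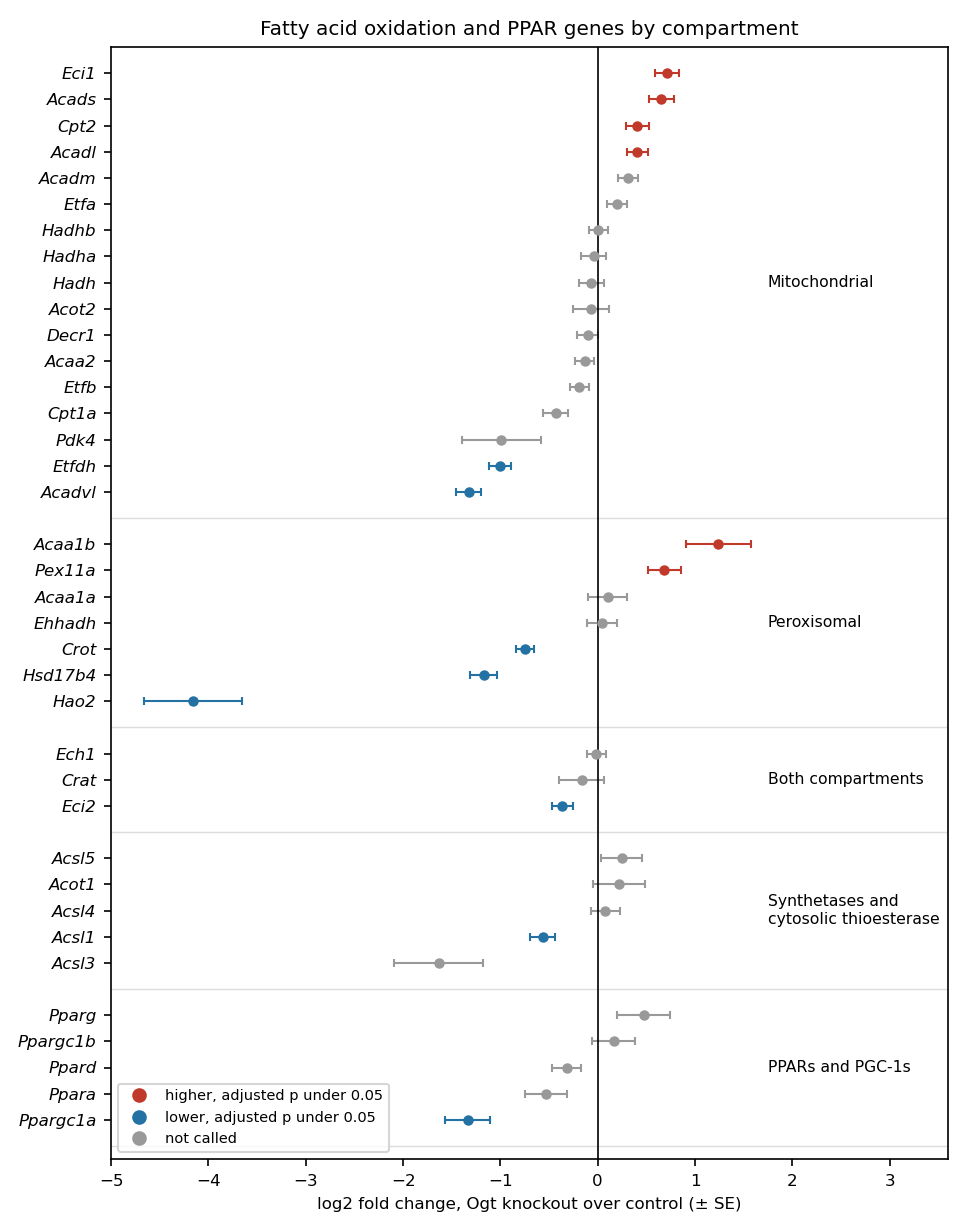
Log2 fold change (Ogt knockout over control) of the 37 members by role, with bars of 1 SE from edgeR's quasi-likelihood fit and 3 libraries a group; red (higher) and blue (lower) points had an adjusted p under 0.05 and grey points did not. Hao2 lies farthest to the left at -4.16 and Acaa1b farthest to the right at 1.24, and genes of the same organelle lie on both sides of 0.

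PPARs bind pairs of the hexamer AGGTCA in the same direction with 1 base between them, so the start regions of the members were searched for these letters. RefSeq windows from 250 bases before to 50 bases after the start (build GRCm38.p6; the submitters' processing notes name GRCm39 for the deposited values) were given for 32 of the 37 genes, as 35 windows. The hexamer on either strand was found in 5 of the 35 windows (14.3%), against 16.3% of all 32851 windows. Those 5 windows belong to Acadvl, Cpt1a, Acadm and Pparg, whose log2 fold changes were -1.33, -0.43, 0.31 and 0.47. Of these genes only Acadvl passed the test. The pair with at most 2 mismatches at its 12 fixed positions was found in 1 member window (2.86%), against 3.86% of all windows. No member window held the exact pair, and 13 windows of the whole table did. The windows below are those of Acadvl, a gene that fell, and of Cpt1a, the shuttle's entry enzyme, both with the hexamer; of Etfa, with the paired match; and of Hao2, the member that fell most, with neither. Capitals mark the match: the hexamer 87 bases before the start in Acadvl, the hexamer on the opposite strand 94 bases before the start in Cpt1a, and the pair on the opposite strand 77 bases before the start in Etfa.
Acadvl (chr11:70015379-70015678, minus strand): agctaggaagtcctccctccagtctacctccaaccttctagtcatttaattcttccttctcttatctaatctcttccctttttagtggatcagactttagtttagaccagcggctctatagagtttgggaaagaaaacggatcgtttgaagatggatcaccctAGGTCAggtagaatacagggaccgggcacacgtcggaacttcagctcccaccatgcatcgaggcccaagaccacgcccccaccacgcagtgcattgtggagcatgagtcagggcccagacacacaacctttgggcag
Cpt1a (chr19:3323051-3323350, plus strand): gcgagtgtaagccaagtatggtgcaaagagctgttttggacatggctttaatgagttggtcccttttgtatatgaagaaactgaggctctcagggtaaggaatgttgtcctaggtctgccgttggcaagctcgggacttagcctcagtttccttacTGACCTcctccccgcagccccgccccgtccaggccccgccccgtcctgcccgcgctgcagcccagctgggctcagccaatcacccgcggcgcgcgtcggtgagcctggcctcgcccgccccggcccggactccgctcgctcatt
Etfa (chr9:55512194-55512493, minus strand): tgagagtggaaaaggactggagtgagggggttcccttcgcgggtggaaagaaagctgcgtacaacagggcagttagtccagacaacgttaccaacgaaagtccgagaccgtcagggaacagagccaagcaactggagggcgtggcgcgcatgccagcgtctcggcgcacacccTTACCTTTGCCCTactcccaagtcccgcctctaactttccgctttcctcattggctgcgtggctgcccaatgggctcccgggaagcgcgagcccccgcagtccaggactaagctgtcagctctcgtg
Hao2 (chr3:98893181-98893480, minus strand): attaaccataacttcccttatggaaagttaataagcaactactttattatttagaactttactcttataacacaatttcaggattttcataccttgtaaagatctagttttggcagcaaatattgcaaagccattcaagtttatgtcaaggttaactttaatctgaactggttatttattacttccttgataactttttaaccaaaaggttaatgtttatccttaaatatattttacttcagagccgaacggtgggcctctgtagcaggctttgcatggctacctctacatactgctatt
A match describes these letters only, and PPAR sites can lie outside such windows. The windows of Hadha and Hadhb, which encode the partner subunits of the trifunctional protein, share 228 bases on opposite strands.

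Before oxidation fatty acids are activated to acyl-CoA, and the Acsl synthetases are among the enzymes that do so. Acsl1 fell, with 33.5, 26.7 and 31.7 CPM in the knockout libraries, against 41.4, 48.4 and 46.2 CPM in the control libraries. Its log2 fold change was -0.57 ± 0.12 (SE; adjusted p = 0.0190), and the groups did not overlap. Acsl5, the synthetase with the highest level here, had 1339.5, 1668 and 1429 CPM in the knockout libraries, against 927, 1182 and 1635 CPM in the control libraries. The groups overlapped widely, since control 3 had nearly the level of the highest knockout library (log2 fold change 0.25 ± 0.21, adjusted p = 0.458). Per transcript length, Acsl5 had the highest level of all 37 genes, at 712 ± 118 FPKM in the knockout and 548 ± 215 FPKM in the control (SD, n = 3 each). Acsl3 had 39.3, 24.5 and 26.3 CPM in the knockout libraries, against 149, 43.5 and 86.8 CPM in the control libraries. All knockout libraries were below all control libraries, but the controls ranged widely and Acsl3 missed the threshold (log2 fold change -1.64 ± 0.46, adjusted p = 0.0563). It passed with the DESeq2 test (adjusted p = 0.000235), limma voom (0.0491), a filter of 1 CPM in 3 libraries (0.0282), the replicate block (0.0151) and without control 2 (0.0156), and the other alternatives gave up to 0.160. Acsl4, which prefers polyunsaturated chains, averaged 15.2 ± 0.684 CPM in the knockout and 14.4 ± 2.04 CPM in the control. The call on Acsl1 was lost when knockout 2, knockout 3, control 2 or control 3 was left out, with an adjusted p of up to 0.0736, and with limma on log2(FPKM + 0.1) and log2(FPKM + 1), where its value was -0.42 and -0.38.

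Of the 4 carnitine acyltransferases, 1 rose (Cpt2), 1 fell (Crot) and 2 did not pass the test. Cpt1a, the outer-membrane transferase that controls entry of long chains into mitochondria, had 185, 162 and 177 CPM in the knockout libraries, against 266, 201 and 239.9 CPM in the control libraries. The knockout libraries were all lower, yet the gene missed the threshold (log2 fold change -0.43 ± 0.13, adjusted p = 0.0521). It passed without control 2 (0.0400), and also with the DESeq2 test, a filter of 1 CPM and the replicate block (down to 0.0251). Cpt2, the inner-membrane enzyme that converts the carnitine ester back to acyl-CoA, rose. It had 166, 185 and 170.0 CPM in the knockout libraries, against 145, 129 and 118 CPM in the control libraries, with no overlap (log2 fold change 0.41 ± 0.11, adjusted p = 0.0411). Crot, the peroxisomal octanoyltransferase that hands shortened chains on as carnitine esters, fell. It had 85.9, 87.5 and 90.7 CPM in the knockout libraries, against 151, 148 and 143 CPM in the control libraries. The libraries of each group lay within a few CPM of each other and the groups were far apart (log2 fold change -0.75 ± 0.09, adjusted p = 0.00288). Crat, the carnitine acetyltransferase, averaged 74.7 ± 12.2 CPM in the knockout and 83.8 ± 24.4 CPM in the control, with overlap (adjusted p = 0.654). The call on Cpt2 was lost without any 1 knockout library, without control 2 or without control 3 (adjusted p up to 0.134).

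The acyl-CoA dehydrogenases carry out the opening step of each mitochondrial round, and each prefers a chain length. Acadvl, for very long chains, fell, while Acadl and Acads, for long and short chains, rose. Acadvl had 66.3, 81.9 and 80.8 CPM in the knockout libraries, against 212, 171 and 191 CPM in the control libraries. Even the highest knockout library was well below the lowest control library (log2 fold change -1.33 ± 0.13, adjusted p = 0.00163). Acadl had 186, 223 and 189 CPM in the knockout libraries, against 151, 148 and 152 CPM in the control libraries. Its groups did not overlap (log2 fold change 0.41 ± 0.11, adjusted p = 0.0358). Acads had 121, 132 and 124 CPM in the knockout libraries, against 94.5, 75.4 and 69.5 CPM in the control libraries. Again every knockout library was above every control library (log2 fold change 0.65 ± 0.13, adjusted p = 0.0137). Acadm, for medium chains, had 185, 201 and 192 CPM in the knockout libraries, against 162, 163 and 142 CPM in the control libraries. The groups were apart, but the gene missed the threshold (log2 fold change 0.31 ± 0.10, adjusted p = 0.0720). It passed without control 1 (0.0375), and also with the DESeq2 test, library size alone and both FPKM scales (down to 0.0248).

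Compared per transcript length, the order of the dehydrogenases differed between the groups. In the knockout, Acadl averaged 109 ± 12.7 FPKM, Acadm 99.02 ± 6.63 FPKM, Acads 70.4 ± 4.81 FPKM and Acadvl 37 ± 5.43 FPKM (SD, n = 3 each). In the control, Acadvl averaged 84.5 ± 10.9 FPKM, Acadl 74.8 ± 1.99 FPKM, Acadm 72.7 ± 6.57 FPKM and Acads 40.8 ± 7.65 FPKM. Acadvl thus stood lowest in the knockout, below Acads in every library, whereas in the control its libraries overlapped those of Acadl and Acadm. The deposited counts of Acadvl were not whole in any of the 6 libraries, and how the fractions arose is not given in the sources used here. Leaving out knockout 2 or 3 ended the call on Acads (adjusted p up to 0.0568), and leaving out any 1 knockout library, control 2 or control 3 ended that on Acadl (up to 0.121).

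**Figure D2:**
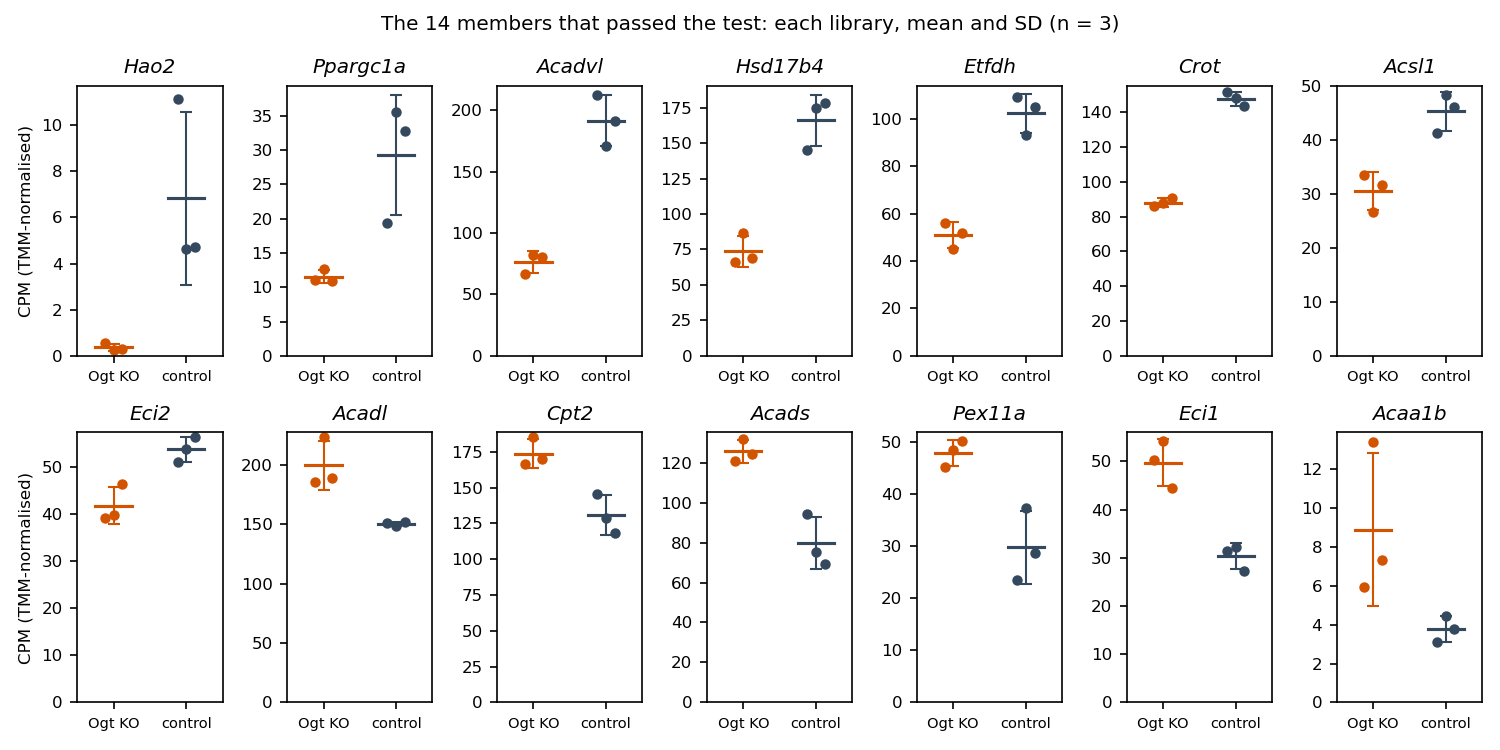
CPM of the members that passed the test, 1 panel a gene, with the 3 Ogt knockout libraries left of the 3 control libraries, a line at each group's mean, bars of 1 SD and a vertical scale of its own in each panel. The knockout libraries of Acadvl lie between 66.3 and 81.9 CPM, below its control libraries at 171 to 212 CPM, and those of Acads at 121 to 132 CPM lie above its control libraries at 69.5 to 94.5 CPM.

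Electrons from these dehydrogenases pass to the electron transfer flavoprotein, made of Etfa and Etfb, and then through Etfdh to ubiquinone. Etfdh fell, with 56.1, 45.1 and 52.0 CPM in the knockout libraries, against 109, 93.1 and 105 CPM in the control libraries. The groups did not overlap (log2 fold change -1.003 ± 0.12, adjusted p = 0.00263), and the call held without each library in turn. Neither flavoprotein subunit passed the test. Etfa averaged 173 ± 3.37 CPM in the knockout and 150.4 ± 14.02 CPM in the control (log2 fold change 0.20 ± 0.11, adjusted p = 0.221). Etfb averaged 66.0 ± 4.24 CPM in the knockout and 75.2 ± 4.84 CPM in the control (log2 fold change -0.19 ± 0.10, adjusted p = 0.217). All 3 knockout libraries were above the controls for Etfa and below them for Etfb.

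Among the members, the genes of the later steps of the mitochondrial round did not pass the test. Hadha and Hadhb, the subunits of the trifunctional protein that handles long chains, stayed close between the groups. Hadha averaged 324 ± 29.4 CPM in the knockout and 333 ± 36.2 CPM in the control (log2 fold change -0.04 ± 0.13). Hadhb averaged 267 ± 4.89 CPM in the knockout and 266 ± 16.9 CPM in the control (log2 fold change 0.01 ± 0.10). The bounds of 1 SE on either side leave room for small shifts in both. Hadh, the dehydrogenase for shorter 3-hydroxyacyl chains, averaged 442 ± 21.6 CPM in the knockout and 462 ± 61.9 CPM in the control, and overlapped (log2 fold change -0.06 ± 0.13). Acaa2, a mitochondrial thiolase, averaged 98.2 ± 6.54 CPM in the knockout and 108 ± 4.38 CPM in the control (log2 fold change -0.13 ± 0.10). The adjusted p of these 4 genes lay between 0.377 and 0.971. Hadha, Hadh and Acaa2 had slightly positive values under library size alone and under FPKM scaling.

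Unsaturated fatty acids need extra enzymes that move or reduce their double bonds, and here the isomerases differed. Eci1, the mitochondrial enoyl-CoA isomerase, rose, with 50.2, 54.3 and 44.5 CPM in the knockout libraries, against 31.4, 32.3 and 27.3 CPM in the control libraries. The groups were apart and the call held without each library in turn (log2 fold change 0.71 ± 0.12, adjusted p = 0.00764). Eci2, the isomerase of peroxisomes and mitochondria, fell, with 39.2, 39.8 and 46.4 CPM in the knockout libraries, against 51.0, 53.9 and 56.3 CPM in the control libraries. Its groups did not overlap, but the result lay close to the threshold (log2 fold change -0.36 ± 0.11, adjusted p = 0.0485). It was lost without any 1 library (adjusted p up to 0.197) and under most other scalings and tests (up to 0.271). Decr1, the mitochondrial dienoyl-CoA reductase, averaged 107 ± 4.92 CPM in the knockout and 115 ± 11.5 CPM in the control. Ech1, a dienoyl-CoA isomerase, averaged 161 ± 10.1 CPM in the knockout and 163 ± 8.42 CPM in the control. Both overlapped, with adjusted p of 0.535 and 0.944.

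Pdk4, the kinase that switches off pyruvate dehydrogenase and is a known PPAR target, had few reads. It had 28, 83 and 140 counts, or 1.94, 4.61 and 7.41 CPM, in the knockout libraries, against 147, 156 and 163 counts, or 8.95, 9.46 and 9.59 CPM, in the control libraries. The knockout libraries were all lower but spread widely, while the controls were nearly equal (log2 fold change -0.99 ± 0.41, adjusted p = 0.130). The acyl-CoA thioesterases Acot1 (cytosolic) and Acot2 (mitochondrial) are close relatives whose deposited counts were not whole in all 6 libraries, so the split between them is uncertain. Summed, they had 10.9, 10.4 and 11.4 CPM in the knockout libraries, against 12.0, 9.52 and 10.0 CPM in the control libraries. The sums overlapped. Across the 17 mitochondrial genes, 4 rose, 2 fell and 11 did not pass the test. These are 23.5% higher and 11.8% lower, beside 9.33% and 9.37% of all tested genes. The median log2 fold change was -0.06, with a range of -1.33 to 0.71.

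In peroxisomes, Hao2 showed the largest fold change of all 37 genes. Hao2 encodes an oxidase of long-chain 2-hydroxy fatty acids. It had 8, 5 and 6 counts in the knockout libraries, against 183, 76 and 80 counts in the control libraries, or 0.553, 0.278 and 0.317 CPM against 11.1, 4.61 and 4.71 CPM. The knockout mean was 5.61% of the control mean (log2 fold change -4.16 ± 0.50, adjusted p = 0.00288). Control 1 was more than double the other controls, and without it the log2 fold change was -3.57. Because the knockout level is low, the log2(FPKM + 1) scale gave -1.73.

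Hsd17b4 and Ehhadh encode the peroxisomal bifunctional proteins, which hydrate and dehydrogenate the chain through different stereoisomers, and they differed in their values. Hsd17b4, which also handles branched chains and bile acid precursors, fell. It had 66.3, 86.3 and 68.7 CPM in the knockout libraries, against 145, 175 and 178 CPM in the control libraries, without overlap (log2 fold change -1.17 ± 0.14, adjusted p = 0.00288). Ehhadh, a widely used PPARalpha target, had 99.4, 117 and 118 CPM in the knockout libraries, against 86.1, 109.6 and 129 CPM in the control libraries. Its groups overlapped (log2 fold change 0.04 ± 0.16, adjusted p = 0.865). The difference between these genes was not itself tested.

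Pex11a, a membrane protein that takes part in peroxisome division and is a known PPARalpha target, rose. It had 45.1, 48.5 and 50.1 CPM in the knockout libraries, against 23.5, 37.3 and 28.6 CPM in the control libraries, without overlap (log2 fold change 0.69 ± 0.17, adjusted p = 0.0262). The call was lost without any 1 knockout library or without control 3 (adjusted p up to 0.0970). The peroxisomal thiolases Acaa1a and Acaa1b are nearly identical genes, and their counts were not whole in all 6 libraries. Acaa1b, the minor one, had 5.94, 13.4 and 7.35 CPM in the knockout libraries, against 3.11, 4.43 and 3.77 CPM in the control libraries. It passed the test (log2 fold change 1.24 ± 0.33, adjusted p = 0.0354), with knockout 2 the highest, and its value was 0.82 without that library. The call was also lost without knockout 3, without any 1 control, and with limma voom (adjusted p up to 0.107). Summed, the pair had 157, 193 and 148 CPM in the knockout libraries, against 115, 195 and 141 CPM in the control libraries. The sums overlapped, and Acaa1b made up 3.79%, 6.93% and 4.98% of them in the knockout and 2.71%, 2.27% and 2.68% in the control. Across the 7 peroxisomal genes, 2 rose, 3 fell and 2 did not pass the test, with a median log2 fold change of 0.04. In this short list that is 28.6% higher and 42.9% lower, beside 9.33% and 9.37% of all tested genes.

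**Figure D3:**
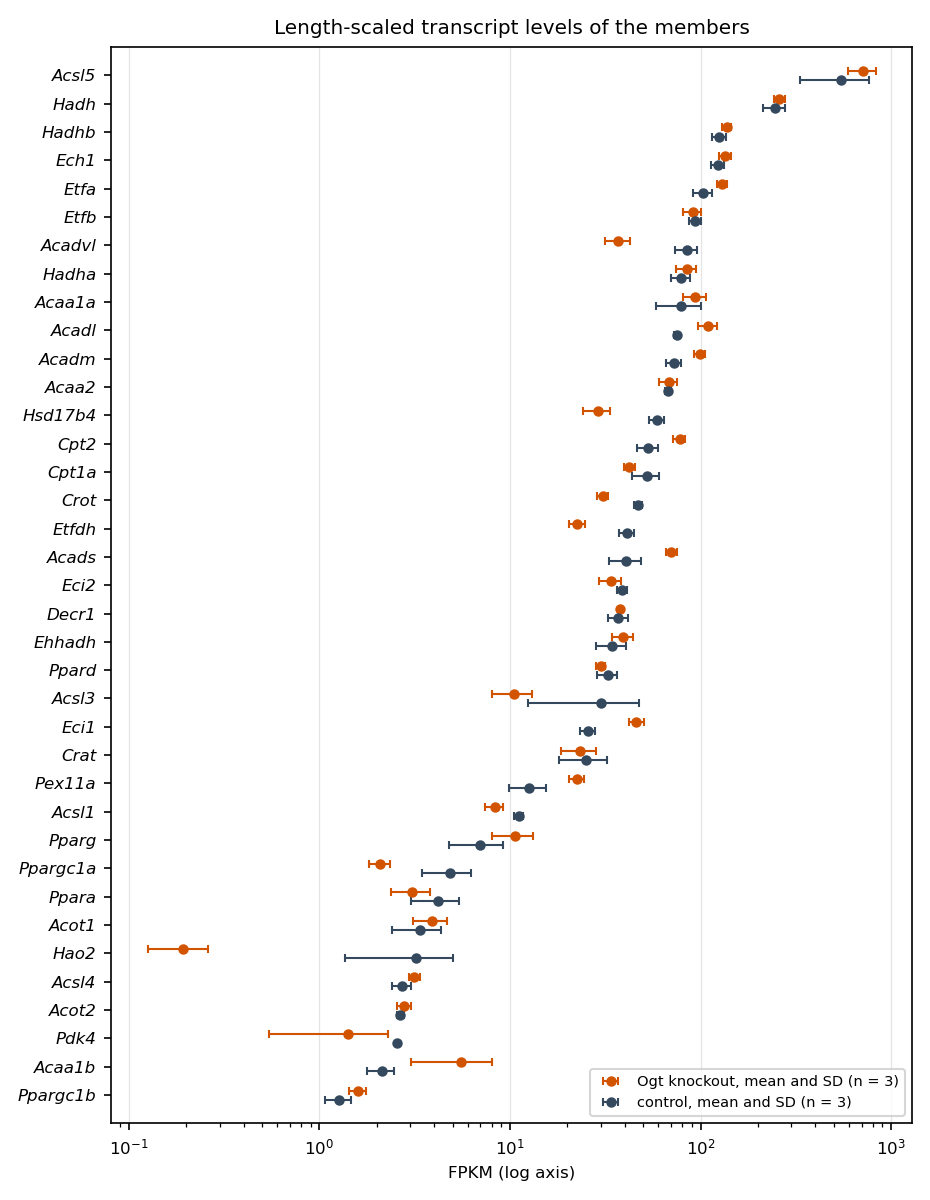
Mean FPKM (log axis) of each member with bars of 1 SD (n = 3 each), with the Ogt knockout point drawn above the control point of the same gene and genes ordered by their control level; FPKM values are the authors' and carry no TMM scaling. Acsl5 is highest in both groups at 712 and 548 FPKM, and the widest gap is that of Hao2, at 0.193 FPKM in the knockout and 3.20 FPKM in the control.

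Summed levels were compared over each organelle. The 17 mitochondrial genes together had 1316 ± 87.0 FPKM in the knockout and 1203 ± 74.0 FPKM in the control (SD, n = 3 each). The 7 peroxisomal genes together had 221 ± 24.0 FPKM in the knockout and 238 ± 27.7 FPKM in the control. In TMM-scaled CPM the mitochondrial sums were 2439, 2613 and 2540.0 in the knockout libraries, against 2736, 2538 and 2529 in the control libraries, so the order of the group means turned and the groups overlapped. The peroxisomal sums were 454, 533 and 475 CPM in the knockout libraries, against 532, 670 and 624 CPM in the control libraries, with overlap. The FPKM sums are led by a few abundant genes, such as Hadh at 259 ± 17.2 FPKM in the knockout and 246 ± 32.5 FPKM in the control. On the FPKM scale the median of the 11832 genes kept there lay at 0.12 (log2 of FPKM + 0.1). It was above the -0.05 of the TMM-scaled counts, which is a median over 14005 genes.

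Of the receptors and coactivators, Ppargc1a alone passed the test. Ppargc1a encodes PGC-1alpha, a coactivator of the PPARs and of mitochondrial biogenesis. It fell, with 11.1, 12.7 and 10.9 CPM in the knockout libraries, against 19.3, 35.6 and 32.8 CPM in the control libraries. The knockout libraries lay close together and below all controls, of which control 1 was lowest (log2 fold change -1.34 ± 0.23, adjusted p = 0.00819). The call held without each library in turn. Its relative Ppargc1b averaged 5.37 ± 0.295 CPM in the knockout and 4.80 ± 0.902 CPM in the control (adjusted p = 0.635).

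The 3 receptors overlapped between the groups. Ppara had 7.67, 10.5 and 8.25 CPM in the knockout libraries, against 12.8, 9.88 and 15.6 CPM in the control libraries (log2 fold change -0.53 ± 0.21, adjusted p = 0.120). Ppard, the receptor with the highest level here, had 100.4, 77.1 and 70.5 CPM in the knockout libraries, against 93.7, 109.9 and 106 CPM in the control libraries (log2 fold change -0.32 ± 0.15, adjusted p = 0.164; 0.0488 without knockout 1). Knockout 1 lay within the range of the controls for Ppard. Pparg had 25.2, 14.9 and 17.4 CPM in the knockout libraries, against 13.03, 9.94 and 18.4 CPM in the control libraries (log2 fold change 0.47 ± 0.27, adjusted p = 0.258). Per transcript length, Ppard averaged 29.9 ± 1.76 FPKM in the knockout and 32.6 ± 3.90 FPKM in the control, the highest level of the receptors. Pparg averaged 10.7 ± 2.62 FPKM in the knockout and 6.97 ± 2.18 FPKM in the control. Ppara was lowest, at 3.07 ± 0.710 FPKM in the knockout and 4.21 ± 1.17 FPKM in the control.

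Further genes around the members were taken as lists by known role. Of 24 tested genes listed as partners and coregulators of the PPARs, 0 rose and 3 fell (Hnf4g, Nrip1 and Rxrb). That is 0% higher and 12.5% lower, beside 9.33% and 9.37% of all tested genes (18.7% in either direction). The list had a median log2 fold change of -0.26. Hnf4g, a nuclear receptor of enterocyte differentiation, averaged 249.9 ± 33.0 CPM in the knockout and 435 ± 30.8 CPM in the control (log2 fold change -0.80 ± 0.13, adjusted p = 0.00667). Nrip1, a corepressor, and Rxrb, a retinoid X receptor, had log2 fold changes of -0.47 each, with adjusted p of 0.0261 and 0.0450. The call on Rxrb was lost without any 1 library, with 3 other scalings (DESeq2 size factors, upper quartile and library size alone), with no count filter and on both FPKM scales (adjusted p up to 0.156). That on Nrip1 was lost without any 1 library other than control 2, with library size alone and on both FPKM scales (up to 0.116). Rxra and Hnf4a of the same list had log2 fold changes of -0.30 ± 0.11 and -0.27 ± 0.13, both short of the threshold (adjusted p = 0.107 and 0.198).

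Among 22 tested PPAR target genes outside the members, 1 rose (Gpd1) and 7 fell (Aqp7, Me1, Fabp1, Acot4, Retsat, Creb3l3 and Mlycd), with a median log2 fold change of -0.42. These are 4.55% and 31.8% of the list, beside 9.33% higher and 9.37% lower among all tested genes. Another 10 listed targets had too few counts to test, among them Fgf21 and 6 Cyp4a hydroxylases, of which Cyp4a14 was at 0 counts in every library, where 3 counts would be 0.159 to 0.207 CPM. Aqp7, a glycerol channel, had 4.77, 5.11 and 4.13 CPM in the knockout libraries, against 15.4, 27.4 and 30.9 CPM in the control libraries. The groups were far apart (log2 fold change -2.40 ± 0.27, adjusted p = 0.00261). Acot4, a peroxisomal thioesterase, had 25.6, 26.6 and 26.6 CPM in the knockout libraries, against 60.3, 84.2 and 98.9 CPM in the control libraries (log2 fold change -1.63 ± 0.17, adjusted p = 0.00210). Retsat, the retinol saturase, averaged 19.5 ± 1.88 CPM in the knockout and 42.8 ± 4.58 CPM in the control (log2 fold change -1.14 ± 0.13, adjusted p = 0.00263). Angptl4, a secreted lipase inhibitor, went the other way, with 76.4, 103 and 101 CPM in the knockout libraries, against 15.3, 63.7 and 40.7 CPM in the control libraries. Its groups did not overlap, but it missed the threshold (log2 fold change 1.23 ± 0.48, adjusted p = 0.132). Angptl4 was named here after its values were seen.

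The other genes of mitochondrial fatty acid oxidation again included both directions. Of 19 tested, 6 rose (Echs1, Acad9, Acad10, Acad12, Acadsb and Pccb) and 3 fell (Slc25a42, Acot9 and Mlycd), or 31.6% and 15.8%, with a median log2 fold change of 0.03. Echs1, the hydratase for short chains, averaged 113 ± 4.21 CPM in the knockout and 69.6 ± 2.17 CPM in the control (log2 fold change 0.70 ± 0.09, adjusted p = 0.00313). Acot9, a mitochondrial thioesterase, averaged 38.3 ± 1.77 CPM in the knockout and 72.5 ± 5.80 CPM in the control (log2 fold change -0.92 ± 0.10, adjusted p = 0.00233). Among 31 tested genes of other peroxisomal lipid metabolism, 3 rose (Acox2, Acox3 and Phyh) and 5 fell (Acot4, Acot12, Slc25a17, Decr2 and Cat), or 9.68% and 16.1%, with a median of -0.04. Acot4 and Mlycd stand in more than 1 of these lists. Slc25a17, a carrier of the peroxisomal membrane, averaged 12.1 ± 1.99 CPM in the knockout and 26.9 ± 3.52 CPM in the control (log2 fold change -1.16 ± 0.17, adjusted p = 0.00470).

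**Figure D4:**
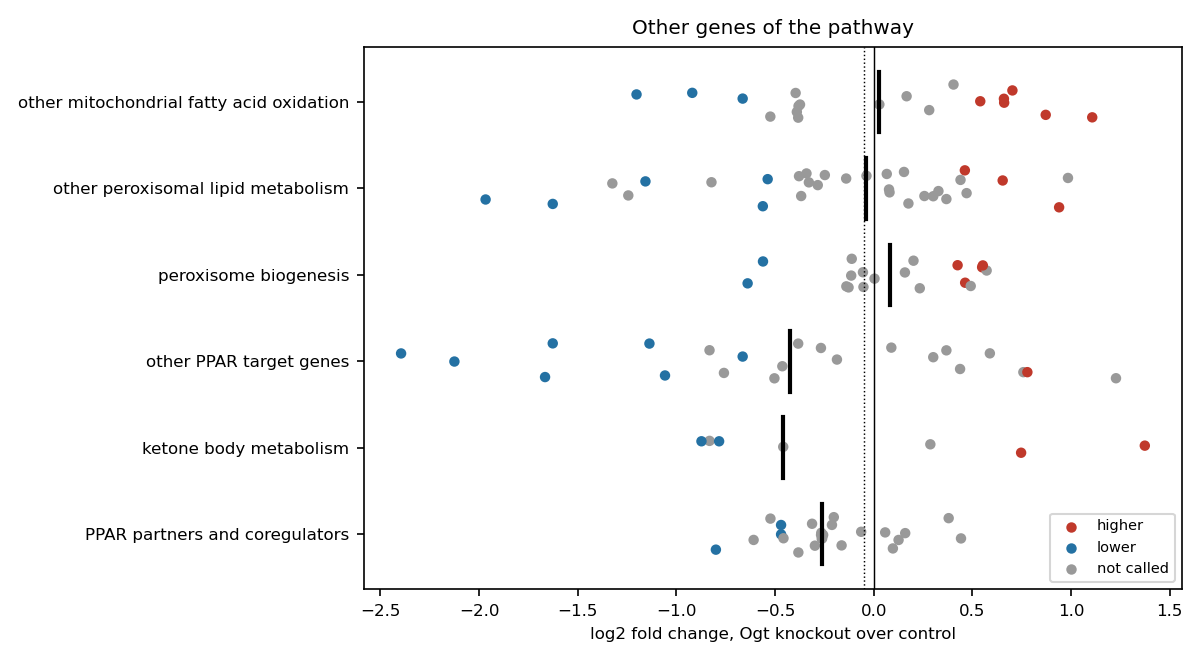
Log2 fold change (Ogt knockout over control) of every tested gene in the 6 neighbouring lists (points, colored by whether they were higher, lower or not called), with a black bar at each list's median and a dotted line at the median of all tested genes, -0.05. The other PPAR target genes have a median of -0.42 and the PPAR partners one of -0.26, while the other mitochondrial genes have one of 0.03.

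The cell makeup of the libraries differed in some marker lists, and their part in these results was not tested. Among all tested genes, 9.33% were higher and 9.37% lower. Of 8 general epithelial markers 0 passed the test, with a median log2 fold change of -0.06. Of 23 enterocyte markers 0 rose and 5 fell (21.7%), and 17 had a negative log2 fold change, with a median of -0.38. Their summed level was 39824 to 45902 CPM in the knockout libraries and 41604 to 60966 CPM in the control libraries. Control 1 was the lowest control at 41604 CPM, within the range of the knockout, and it had the highest CPM of Acadvl, Etfdh, Cpt1a, Crot and Hao2 among the 6 libraries. It also had the lowest CPM of Hsd17b4, Eci2, Acsl1 and Ppargc1a among the controls. The enterocyte sum is led by abundant genes, of which Anpep and Sis were lowest in control 1 among the controls. Alpi, Apob and Apoa4 of the same list were highest in control 1 among the 6 libraries. The sum is therefore no measure of the number of enterocytes, whose part was not tested. All 7 tested tuft cell markers fell, with sums of 19.5 to 26.5 CPM in the knockout libraries and 105 to 114 CPM in the control libraries. Of 10 proliferation markers 1 rose (10.0%), and all 10 had a positive log2 fold change, with a median of 0.54. Their sums were 547 to 753 CPM in the knockout libraries and 308 to 613 CPM in the control libraries. Of 6 tested adipocyte markers 0 passed, with a median log2 fold change of -1.14 and sums over all 8 of 110 to 127 CPM in the knockout libraries and 76.6 to 178 CPM in the control libraries. Adipoq and Plin1, which define fat cells, were at 0 in control 3, while Fabp4 and Cidec were at 5.65 and 61.1 CPM there. Of 7 goblet cell markers 2 fell (Clca1 and Zg16), with sums of 4775 to 8318 CPM in the knockout libraries and 6828 to 15929 CPM in the control libraries. Of 6 fibroblast markers 2 rose (Col1a1 and Col1a2), with sums of 379.6 to 452 CPM in the knockout libraries and 274 to 382 CPM in the control libraries. Of 10 lymphocyte markers 0 passed, with sums of 217 to 431 CPM in the knockout libraries and 299 to 456 CPM in the control libraries; knockout 1 was lowest and had 1.73 CPM of the B cell gene Ms4a1, against 29.9 CPM or more in every other library. Of 4 tested hepatocyte markers 1 rose (Alb, at 4.44 ± 2.59 CPM in the knockout and 1.43 ± 0.218 CPM in the control). In striated muscle, another tissue of high fat oxidation, 2 of 3 tested markers rose (Acta1 and Mylpf), 1 did not pass, and Myh4 was at 0 in every library.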

How the data were processed

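Per the labels' protocols, Trizol was used on ileal epithelial cells and the NEBNext Ultra RNA kit for the libraries. This kit keeps no strand, so reads of a gene and its antisense partner are not separable. Builds GRCm39 and mm39 come from the submitters' processing notes. No aligner, counter or annotation release is given in the sources used here. Per the file headers, the authors deposited 1 estimated count (an expected count, with no normalization) and 1 FPKM value, scaled for length and depth, per gene and library. Between 7.68% and 8.09% of a library's estimated counts were not whole (tolerance 0.001), and they were rounded here.

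Genes were named by Ensembl ID from GENCODE M21 (22219 IDs) or the deposited table (43 IDs), and 12 had no name. Genes were kept by filterByExpr (minimum count 10, minimum total 15), scaled by TMM and compared with edgeR 4.0.16 (quasi-likelihood, robust; R 4.3.3), with Benjamini-Hochberg adjustment over 14005 genes and a threshold of 0.05. The SE is the log2 fold change over the root of its F statistic. A level of 3 counts equals 0.159 to 0.207 CPM, and precision is limited by 3 libraries a group. No library pair agreed within sampling noise (mean chi-square per gene at least 19.5). Alternatives were other scalings (DESeq2 size factors, upper quartile, library size alone), DESeq2 1.42.0, limma 3.58.1 (voom, and log2 FPKM with pseudocounts of 0.1 and 1 for genes of at least 1 FPKM), other count filters, a replicate block, a log2 fold change of at least 1, and each library left out. The test was checked on simulated counts for 13824 genes. With a simulated 2-fold difference, 58 out of 99 passed the threshold, and with a 4-fold difference 85 out of 93 did. A further 16 passed although no difference had been simulated for them, and 0 passed in the wrong direction. When no gene was given a difference, 1 passed. Differences were simulated for 200 genes, a far smaller share than the 18.7% of genes called in the data, so these rates need not hold there. A gene that did not pass may still differ within what its SE allows, and some calls may be false. The members and lists were chosen with earlier results of these data known. Named are all members, Ogt, Oga and, per list, genes among the 3 smallest adjusted p or highest in CPM; marker genes and others are named where a count or result turns on them. Some listed genes are not reported here. Promoter windows are those of RefSeq for GRCm38.p6. Figures were drawn with matplotlib 3.10.9.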

Additional observations from a re-analysis of the deposited data

How the results depend on the processing

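The calls on Acadvl, Etfdh, Crot, Hsd17b4, Hao2, Eci1 and Ppargc1a held under every other test, scaling and filter run and without each library; with a log2 fold change of at least 1 also required, Crot and Eci1 were lost. Leaving out 1 library gave 549 to 1932 higher and 460 to 1372 lower genes in all, 1 to 6 higher and 6 to 8 lower members, 1 to 5 higher and 2 to 3 lower mitochondrial members, and 0 to 1 higher peroxisomal members, with a mitochondrial median of -0.0869 to 0.001. Library size alone gave 2045 higher and 859 lower genes, log2(FPKM + 0.1) 712 lower genes and log2(FPKM + 1) 726. Under these 3 settings the median of all genes moved to 0.09, 0.12 and 0.10, the mitochondrial median to 0.0719, 0.0781 and 0.0778, and the peroxisomal median to 0.19 in each. Both FPKM settings took in 11832 genes, against 14005 in the main fit. Requiring a log2 fold change of at least 1 left 270 higher and 446 lower genes, 1 higher and 5 lower members, 0 higher mitochondrial members, and 1 higher and 2 lower peroxisomal members. Limma voom left 1 higher peroxisomal member. The signs of uncalled genes near 0 turned under library size alone, log2(FPKM + 0.1) and log2(FPKM + 1), in that order: Hadha 0.10, 0.10 and 0.0942, Hadh 0.0719, 0.0781 and 0.0778, Decr1 0.0275, 0.034 and 0.033, Acaa2 0.0066, 0.0018 and 0.0019, Ech1 0.12, 0.13 and 0.13, and Pex19 0.0795, 0.0794 and 0.0778. Hadh ranged between -0.1107 and 0.0753 with 1 library left out. The cause of these shifts was not tested. Same-numbered libraries of the groups deviated together with correlations of 0.31, 0.29 and 0.0998, too weak in the last to treat the numbers as pairs. Each library correlated best with its own number, as a hint from the data. With the replicate number as a block, 1728 genes were higher and 1674 lower, with 6 higher and 10 lower members, adding Cpt1a and Acsl3, and 3 lower mitochondrial members. Of 592 member values under alternatives, 42 lost a call, 15 gained one and 16 changed sign by at least the SE of the main fit. Smaller sign changes of uncalled genes were counted as unchanged, and over all named genes there were 21 of these. Low counts limit the precision of genes such as Hao2 and Pdk4.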

Other observations

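Peroxisome biogenesis genes, the peroxins and division factors that build the organelle, showed both directions. Of 18 tested, 4 rose (Pex3, Pex5, Pex14 and Pex16) and 2 fell (Pex7 and Mff), or 22.2% and 11.1% beside 9.33% and 9.37% of all tested genes, with a median log2 fold change of 0.08. Pex7, the import receptor for proteins with the N-terminal signal such as the thiolases, had 18.7, 19.3 and 19.4 CPM in the knockout libraries, against 30.3, 29.5 and 29.7 CPM in the control libraries. The libraries of each group nearly coincided (log2 fold change -0.64 ± 0.11, adjusted p = 0.00765). Pex14, a docking protein of the import channel, averaged 34.1 ± 0.816 CPM in the knockout and 23.2 ± 2.71 CPM in the control (log2 fold change 0.55 ± 0.12, adjusted p = 0.0196), a call lost without any 1 knockout library or without control 3 (up to 0.0770). Mff, a receptor for the division of mitochondria and peroxisomes, averaged 42.3 ± 1.16 CPM in the knockout and 62.3 ± 1.004 CPM in the control (log2 fold change -0.56 ± 0.09, adjusted p = 0.00571). Pex19, whose mean CPM over all libraries was just above that of Fis1, the next of the list, averaged 91.5 ± 2.68 CPM in the knockout and 95.03 ± 1.78 CPM in the control and did not pass (adjusted p = 0.696).

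Ketone body genes also split. Of 7 tested, 2 rose (Slc16a6 among them) and 2 fell (Acat1 and Oxct1), with a median log2 fold change of -0.46. Each direction is 28.6% of this short list, beside 9.33% higher and 9.37% lower among all tested genes. Slc16a6, a ketone body transporter in zebrafish liver, averaged 26.9 ± 3.22 CPM in the knockout and 10.4 ± 1.46 CPM in the control (log2 fold change 1.37 ± 0.16, adjusted p = 0.00264), and its counts were not whole in 5 libraries. Acat1, the mitochondrial acetoacetyl-CoA thiolase, averaged 61.2 ± 8.40 CPM in the knockout and 112 ± 19.1 CPM in the control (log2 fold change -0.87 ± 0.15, adjusted p = 0.00889). Oxct1, which starts ketone use, averaged 228 ± 66.8 CPM in the knockout and 393 ± 70.7 CPM in the control (log2 fold change -0.78 ± 0.22, adjusted p = 0.0465), a call lost without any 1 library other than knockout 1, with the replicate block, with library size alone and on both FPKM scales (up to 0.147).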
